A study of Mus musculus with 12 samples.

Results

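The genes described are 10 components of the transforming growth factor beta (TGF-beta) pathway, picked by symbol from a table of 25899 genes. They are 3 ligand genes (Tgfb1, Tgfb2, Tgfb3), 3 receptor genes (Tgfbr1, Tgfbr2, Tgfbr3) and 4 genes of latent TGF-beta binding proteins (Ltbp1, Ltbp2, Ltbp3, Ltbp4). All 10 were found in the table and all 10 passed the filter on low values. The RNA came from C57BL/6 mouse pups at postnatal day 4, from the apical part of lower first molars, where the root starts to form. There were 6 libraries from mice lacking Nfic (Nfic-/-, null) and 6 from littermates that carried 1 intact copy (Nfic+/-, heterozygous), so the control group was not wild type. The replicate numbers 5 to 10 occur in each genotype and were read as 6 pairs of littermates, although no label says so outright; whether a library pools several molars is not given in the labels. Nfic encodes a nuclear factor I transcription factor needed for molar roots, and the series title asks how it acts through Hedgehog signalling.

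TGF-beta ligands are secreted as inactive dimers. The cleaved propeptide stays wrapped around the mature growth factor, and a latent TGF-beta binding protein ties this complex to microfibrils of the extracellular matrix. Integrins and other activators release the ligand, which binds the type II receptor Tgfbr2, and this receptor then phosphorylates the type I receptor Tgfbr1. Tgfbr3, also named betaglycan, is a co-receptor that presents ligand, Tgfb2 in particular. In teeth the pathway is known for its roles in dental mesenchyme, odontoblast differentiation and root formation.

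Libraries held 70.2 to 96.4 M reads. In 6 of 6 pairs the null library had less Nfic than its partner, yet the transcript was still detected. Its RPKM (mapped reads scaled by gene length and library size) ran from 11.3 to 24.5 in heterozygous and from 7.90 to 16.5 in null libraries, with means of 16.8 ± 4.42 and 11.4 ± 3.02 (SD, n = 6 each; exact 2-sided permutation p = 0.0303 over 924 assignments), and single exons were not analysed here. Without heterozygous replicate 6 or 10, or null replicate 5 or 6, the exact permutation p was 0.0519, 0.0628, 0.0541 and 0.0541. Markers of tissue differed in level by genotype, although none passed the test. All 12 dental mesenchyme and follicle markers stood lower in the null group and all 10 dental epithelium markers stood higher. The summed level of the mesenchymal markers was 187 to 564 RPKM in heterozygous and 81.3 to 421 RPKM in null libraries, and that of the epithelial markers was 1472 to 2220 and 1803 to 2711 RPKM. No marker of either list was near 0. The 4 libraries numbered 8 and 9 stood apart by 105 to 137 RPKM of summed intestinal markers, against 0.06 to 0.0967 RPKM in the other 8. Without these 4 libraries 0 of 10 members were called and every member's difference kept its sign. Amelx, the amelogenin gene, took 3.40% to 13.5% of gene reads, which lowers every other RPKM value in the libraries where it is high. The part of tissue make-up in the results that follow was not tested, and in whole tissue fewer cells of a type and less RNA per cell cannot be told apart.

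All 3 ligand genes were well expressed, in the order Tgfb1, Tgfb3, Tgfb2 by mean RPKM in each genotype. Tgfb1, the most widely expressed ligand gene (chromosome 7, 25687002 to 25705077, plus strand, GRCm38), had a lowest, median and highest level of 38.6, 42.8 and 47.3 RPKM in heterozygous libraries and 32.7, 39.5 and 43.2 RPKM in null libraries. It was the steadiest ligand, with a highest level 1.45 times the lowest over the 12 libraries. Tgfb3, known for its role in palate fusion (chromosome 12, 86056745 to 86079041, minus strand), ran through 27.7, 34.5 and 40.2 RPKM among heterozygous and 17.9, 26.1 and 40.6 RPKM among null libraries. Of the null libraries, 4 lay below every heterozygous library and 1, at 40.6 RPKM, lay above every one, so the groups overlapped. Tgfb2, the ligand gene that depends most on betaglycan (chromosome 1, 186622792 to 186705989, minus strand), ran through 14.3, 23.5 and 36.6 RPKM among heterozygous and 16.01, 20.8 and 27.5 RPKM among null libraries, and all 6 null libraries lay within the heterozygous range.

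Tgfb1 made up 42.2% ± 3.65 of the summed ligand RPKM in heterozygous and 44.1% ± 4.85 in null molars (SD, n = 6 each). Tgfb3 made up 34.0% ± 4.61 and 31.9% ± 4.36, and Tgfb2 made up 23.7% ± 5.02 and 24.1% ± 1.32. Tgfb1 exceeded Tgfb2 in 12 of 12 libraries and Tgfb3 in 11 of 12, the exception being null replicate 10. Tgfb3 exceeded Tgfb2 in 11 of 12 libraries, all but heterozygous replicate 6. The lowest summed ligand level, 66.6 RPKM, was in null replicate 6 and the highest, 115 RPKM, was in its partner of the same number, heterozygous replicate 6.

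**Figure D1:**
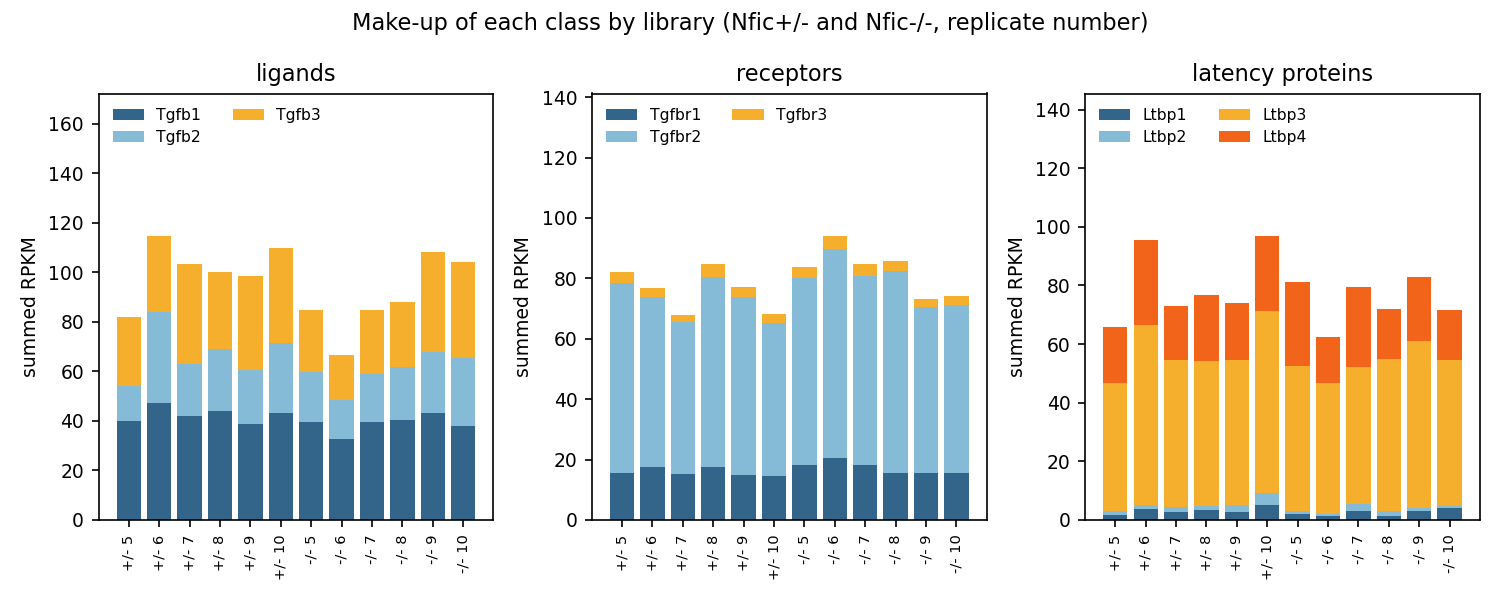
Stacked RPKM of the ligand, receptor and latency protein genes in each of the 12 libraries, labelled by genotype and replicate number; RPKM is scaled by gene length, so bars can be added across genes. Tgfb1, Tgfbr2 and Ltbp3 form the largest block of their class in every library except null replicate 10, where Tgfb3 (38.6 RPKM) slightly exceeds Tgfb1 (37.9 RPKM).

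Among the receptors, transcripts of the ligand-binding type II receptor were far more abundant than those of its partners. Tgfbr2 (chromosome 9, 116084293 to 116175360, minus strand) had a lowest, median and highest level of 50.1, 57.6 and 63.2 RPKM in heterozygous and 54.8, 62.2 and 69.1 RPKM in null libraries. Tgfbr1, the type I kinase that carries the signal to Smad proteins (chromosome 4, 47353222 to 47414931, plus strand), ran through 14.5, 15.4 and 17.5 RPKM among heterozygous and 15.4, 16.97 and 20.6 RPKM among null libraries. The ratio of Tgfbr2 to Tgfbr1 was 3.61 ± 0.355 in heterozygous and 3.59 ± 0.349 in null molars (SD, n = 6 each) and never left the range 3.24 to 4.28. Tgfbr3 (chromosome 5, 107106570 to 107289629, minus strand) was the least expressed receptor gene, at 2.55, 3.12 and 4.03 RPKM in heterozygous and 2.89, 3.39 and 4.44 RPKM in null libraries. The genotypes overlapped for each receptor, with 3, 4 and 5 of the 6 null libraries inside the heterozygous range for Tgfbr1, Tgfbr2 and Tgfbr3.

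The latency proteins split into an abundant and a scarce pair. Ltbp3 (chromosome 19, 5740904 to 5758532, plus strand), known in humans and mice for tooth and skeletal defects when lost, had a lowest, median and highest level of 43.5, 49.98 and 61.8 RPKM in heterozygous and 44.8, 49.7 and 56.7 RPKM in null libraries. Ltbp4, which also takes part in elastic fibre assembly (chromosome 7, 27305136 to 27337692, minus strand), ran through 18.1, 21.0 and 29.1 RPKM among heterozygous and 15.9, 19.6 and 28.6 RPKM among null libraries. Ltbp3 made up 65.8% ± 2.08 of the summed latency RPKM in heterozygous and 66.9% ± 5.66 in null molars (SD, n = 6 each). In the null group Ltbp4 fell into a lower set of 15.9, 16.9 and 17.2 RPKM and a higher set of 22.03, 27.6 and 28.6 RPKM, the highest being replicates 5 and 7.

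Ltbp1, the founding member that binds the latent complex (chromosome 17, 75005568 to 75392512, plus strand), ran through 1.75, 3.19 and 5.22 RPKM among heterozygous and 1.20, 2.54 and 4.00 RPKM among null libraries. Ltbp2, a microfibril protein that unlike the others does not bind latent TGF-beta (chromosome 12, 84783212 to 84876532, minus strand), ran through 1.25, 1.42 and 4.12 RPKM among heterozygous and 0.691, 1.06 and 2.27 RPKM among null libraries. These were the most variable members, with a highest level 4.35 times the lowest for Ltbp1 and 5.96 times for Ltbp2 over the 12 libraries. Depth was not limiting, since the lowest Ltbp2 value still corresponded to about 397 reads. Ltbp2 shares 764 exonic bases with the antisense gene D030025P21Rik (0.640 ± 0.360 and 0.459 ± 0.218 RPKM; SD, n = 6 each). Whether counting used strand is not given in the sources used here, so reads in the shared bases cannot be told apart.

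On the RPKM scale the 10 genes ranked in the order Tgfbr2, Ltbp3, Tgfb1, Tgfb3, Tgfb2, Ltbp4, Tgfbr1, Ltbp1, Tgfbr3 and Ltbp2 in heterozygous molars, and in the null molars Ltbp1 and Tgfbr3 changed places. Several neighbours could not be parted by their spread. Tgfbr2 stood above Ltbp3 in 3 of 6 heterozygous libraries, and Ltbp1 stood above Tgfbr3 in 3 of 6. A clear step of non-overlapping ranges separated Tgfbr1 from the scarce Ltbp1, Tgfbr3 and Ltbp2 in each genotype.

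**Figure D2:**
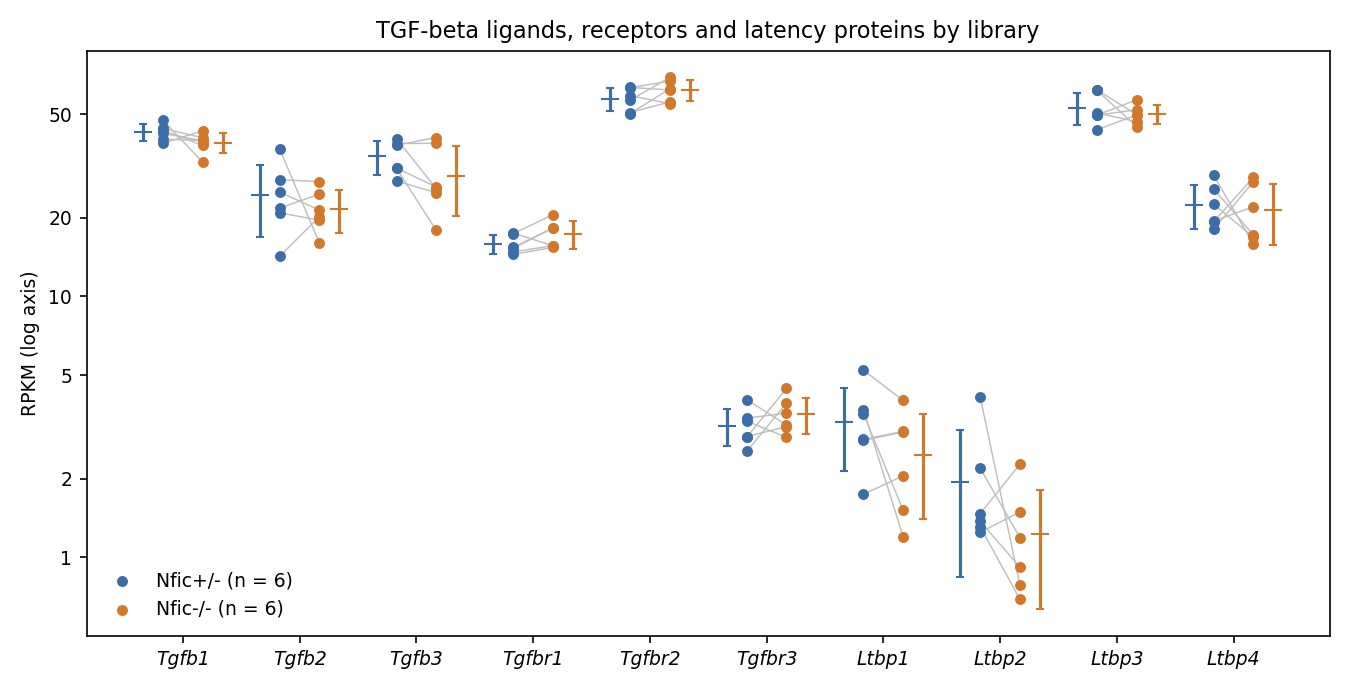
RPKM on a log axis for each member, with 1 point per library, grey lines joining libraries of the same replicate number, and mean ± SD beside the points (n = 6 per genotype). The genotypes overlap for every member, and Ltbp1 and Ltbp2 spread the most.

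Between genotypes, no member passed the test. With limma on log2(RPKM + 1) and Benjamini-Hochberg adjustment over 12094 genes, 0 of 10 members had an adjusted p under 0.05, as did 0% of all genes tested. At an unadjusted p under 0.05 there were also 0 of 10, against 5.34% of all genes (2.62% higher and 2.72% lower in null). The ranges of the genotypes overlapped for 10 of 10 members, where 0.157% of all genes had ranges that did not overlap. All 3 ligand and all 4 latency genes had a fitted difference below 0 and all 3 receptor genes had one above 0, where 51.1% of all genes stood below 0 and 48.9% above. Tgfb2, Ltbp3 and Ltbp4 turned above 0 without the libraries numbered 6. The median difference was -0.14 for ligands, 0.11 for receptors and -0.20 for latency proteins, beside -0.0028 for all genes, on the log2(RPKM + 1) scale, which understates changes of low genes such as Ltbp2.

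The sizes that the data allow differed by gene. Tgfb1 had a mean of 42.6 ± 3.09 RPKM with 1 intact Nfic copy and 38.9 ± 3.51 RPKM without (SD, n = 6 each), a null minus heterozygous difference of -0.13 with a 95% interval of -0.30 to 0.04 (SE 0.0768, limma adjusted p = 0.98). It was lower in 5 of 6 pairs, as were 5 or more pairs in 8.32% of all genes. Tgfb3 had 34.4 ± 5.14 and 29.1 ± 8.76 RPKM, a difference of -0.27 (-0.65 to 0.10; limma adjusted p = 0.998), which was -0.15 without null replicate 6. Tgfb2 had 24.5 ± 7.54 and 21.6 ± 4.05 RPKM, a difference of -0.14 (-0.54 to 0.26), which was -0.02 without heterozygous replicate 6 and 0.06 without both libraries of that number. Ligand differences were smaller in libraries 8 to 10 than in libraries 5 to 7. From libraries 5 to 7 to libraries 8 to 10 they went from -0.21 to -0.05 for Tgfb1. For Tgfb3 they went from -0.50 to -0.05 and for Tgfb2 from -0.25 to -0.02.

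Tgfbr1 had 15.8 ± 1.31 RPKM with 1 intact Nfic copy and 17.3 ± 2.09 RPKM without (SD, n = 6 each), a difference of 0.12 (-0.06 to 0.30; 0.07 without null replicate 6), and was higher in 5 of 6 pairs, as were 5 or more pairs in 13.3% of all genes. Tgfbr2 had 57.1 ± 5.76 and 61.8 ± 5.77 RPKM, a difference of 0.11 (-0.07 to 0.30). Tgfbr3 had 3.19 ± 0.521 and 3.53 ± 0.568 RPKM, a difference of 0.11 (-0.11 to 0.34; 0.06 without null replicate 6). Each receptor had a limma adjusted p of 1. Tgfbr3 was the member whose difference varied most by set of libraries relative to its error, at 0.33 within libraries 5 to 7 and -0.10 within libraries 8 to 10, but the test of that difference did not pass (limma interaction, unadjusted p = 0.0362, adjusted p = 1). In the same sets, in that order, Tgfbr1 differed by 0.24 and 4.77e-05 and Tgfbr2 by 0.19 and 0.04.

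Ltbp1 had 3.31 ± 1.16 RPKM with 1 intact Nfic copy and 2.47 ± 1.06 RPKM without (SD, n = 6 each), a difference of -0.33 (-0.80 to 0.15), with 3 pairs lower and 3 higher. Ltbp2 had 1.95 ± 1.12 and 1.23 ± 0.591 RPKM, a difference of -0.38 (-0.84 to 0.08; limma adjusted p = 0.974), and it was lower in 4 of 6 pairs. Its heterozygous mean rested in part on replicate 10, at 4.12 RPKM, without which the difference was -0.21. Ltbp3 differed by -0.07 (-0.27 to 0.13) and Ltbp4 by -0.08 (-0.43 to 0.27), each with 3 pairs lower and 3 higher. Their signs were not stable, since without the libraries numbered 6 they were 0.0062 and 0.0671. Within libraries 5 to 7 and then 8 to 10, Ltbp1 differed by -0.28 and -0.37 and Ltbp2 by -0.12 and -0.64. Ltbp3 differed there by -0.12 and -0.02 and Ltbp4 by 0.09 and -0.26. When the pairs were fitted as a block, 0 members were called again, and the smallest p among them was that of Tgfb3 (limma unadjusted p = 0.0488, adjusted p = 0.615), a level of unadjusted p under 0.05 that 8.11% of all genes reached in that fit.

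**Figure D3:**
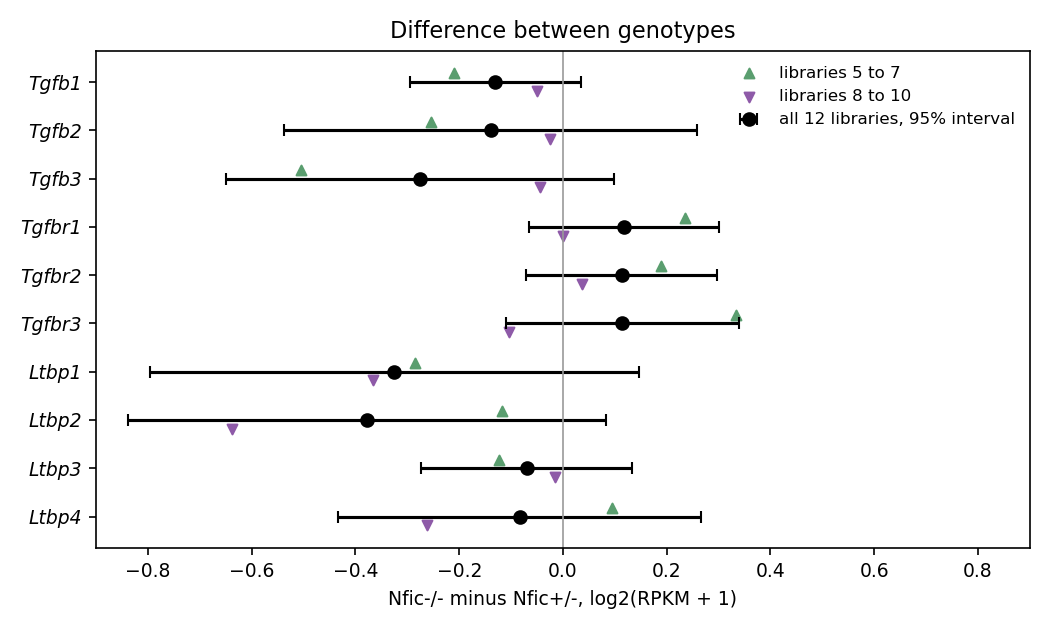
Null minus heterozygous difference of each member on the log2(RPKM + 1) scale, with the 95% interval from limma over all 12 libraries (black) and the differences within libraries 5 to 7 (green) and 8 to 10 (purple, 3 per genotype in each set). Every interval crosses 0, and Tgfbr3 and Ltbp4 have opposite signs in the separate sets.

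The levels of several members were correlated with those of the tissue markers over the libraries. Each r over the 12 libraries pools both genotypes, whose mean marker levels differed. In log2(RPKM + 1), heterozygous then null, these were 3.84 and 3.23 for mesenchyme and 5.91 and 6.24 for epithelium. Of 20 correlations, of each member's log2(RPKM + 1) with the mean log2(RPKM + 1) of the mesenchymal and of the epithelial markers, 8 passed a Benjamini-Hochberg adjusted permutation p of 0.05 over the 12 libraries, 6 of them with mesenchyme and 2 with epithelium. An r of at least the smallest size called (0.664) was reached with the mesenchymal markers by 40.9% of all genes tested and with the epithelial markers by 5.68%, the markers themselves left out. A relation with the mesenchymal markers was therefore common among all genes, and the count is not a result about the members. Littermates share a litter, so the 12 libraries are not fully independent. Ltbp1 tracked the mesenchymal markers most closely, with Pearson r = 0.95 and Spearman rho = 0.94 (permutation p = 1e-05, the smallest that 100000 resamples give, and 4.00e-05; adjusted p = 0.0002 and 0.0008). Without null replicate 6 and heterozygous replicate 10, the libraries farthest from the median marker level, r was 0.91, and it was 0.93 within libraries 5 to 7 and 0.99 within libraries 8 to 10. Under upper-quartile scaling and median centring r was 0.93 and 0.92. Within the heterozygous and the null libraries (n = 6 each) r was 0.996 and 0.92.

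The ligands Tgfb2 and Tgfb3 also rose with the mesenchymal markers. Tgfb2 had r = 0.79 and rho = 0.85 (permutation p = 0.00248 and 0.00091, adjusted p = 0.00992 and 0.00607), 0.78 without the 2 farthest libraries, 0.76 within libraries 5 to 7 and 0.86 within libraries 8 to 10. Under upper-quartile scaling it was 0.68 (adjusted p = 0.0357) and under median centring it no longer passed (r = 0.62, adjusted p = 0.0609). Tgfb3 had r = 0.84 and rho = 0.68 (permutation p = 0.00094 and 0.0194, adjusted p = 0.00627 and 0.0683), 0.69 without the 2 farthest libraries, 0.87 within libraries 5 to 7 and 0.62 within libraries 8 to 10, and it fell with the epithelial markers at r = -0.66 and rho = -0.67 (permutation p = 0.0186 and 0.0205, adjusted p = 0.0465 and 0.0683). That epithelial relation was -0.65 without null replicate 7 and heterozygous replicate 10, -0.64 within libraries 5 to 7 and -0.35 within libraries 8 to 10. By genotype, heterozygous then null, r with mesenchyme was 0.83 and 0.96 for Tgfb2 and 0.51 and 0.94 for Tgfb3. The epithelial r of Tgfb3 was -0.51 and -0.61.

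For each receptor r with mesenchyme was below 0, but only that of Tgfbr2 passed on the RPKM scale. Tgfbr1 and Tgfbr3 had r = -0.63 and -0.61 (permutation test, adjusted p = 0.0579 and 0.0657). Without the 2 farthest libraries these were -0.12 and -0.27. Within the heterozygous libraries they were 0.03 and -0.23, and within the null libraries -0.82 and -0.79. Tgfbr2 fell as the mesenchymal markers rose, with r = -0.79 and rho = -0.76 (permutation p = 0.0022 and 0.00637, adjusted p = 0.00992 and 0.0318), -0.84 within libraries 5 to 7 and -0.77 within libraries 8 to 10. Without the 2 farthest libraries r was -0.61 and no longer passed (permutation p = 0.0634), so the relation rested in part on them. Tgfbr1 rose with the epithelial markers, with r = 0.84 and rho = 0.91 (permutation p = 0.00077 and 0.00011, adjusted p = 0.00627 and 0.0011), 0.84 without the 2 farthest libraries, 0.85 within libraries 5 to 7 and 0.62 within libraries 8 to 10. Under both other scalings all 3 receptors passed with a negative r for mesenchyme (-0.85 to -0.75) and a positive r for epithelium (0.67 to 0.85). By genotype, heterozygous then null, r was -0.57 and -0.89 for Tgfbr2 with mesenchyme. For Tgfbr1 with epithelium it was 0.90 and 0.76.

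For Tgfb1 and Ltbp3 the relation with mesenchyme depended on the scaling. Tgfb1 had r = 0.73 and rho = 0.46 (permutation p = 0.00998 and 0.135, adjusted p = 0.0333 and 0.225), 0.40 without the 2 farthest libraries, 0.97 within libraries 5 to 7 and 0.21 within libraries 8 to 10, and 0.02 and -0.10 under upper-quartile scaling and median centring. Ltbp3 had r = 0.69 and rho = 0.57 (permutation p = 0.0118 and 0.0583, adjusted p = 0.0338 and 0.167), 0.49 without those libraries, 0.77 within libraries 5 to 7 and 0.39 within libraries 8 to 10, and 0.05 and -0.13 under the other scalings. By genotype, heterozygous then null, r with mesenchyme was 0.57 and 0.65 for Tgfb1 and 0.89 and 0.58 for Ltbp3. Tgfbr3, Ltbp2 and Ltbp4 passed with neither marker list on the RPKM scale. Without the libraries numbered 8 and 9, Tgfbr3 passed with mesenchyme (r = -0.82, exact permutation, adjusted p = 0.0444), while Tgfb1 with mesenchyme (adjusted p = 0.0624) and Tgfb3 with epithelium (adjusted p = 0.0625) no longer did. Ltbp1 passed with the epithelial markers only under the other scalings, at r = -0.63 and -0.65 (adjusted p = 0.0476 and 0.0433).

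**Figure D4:**
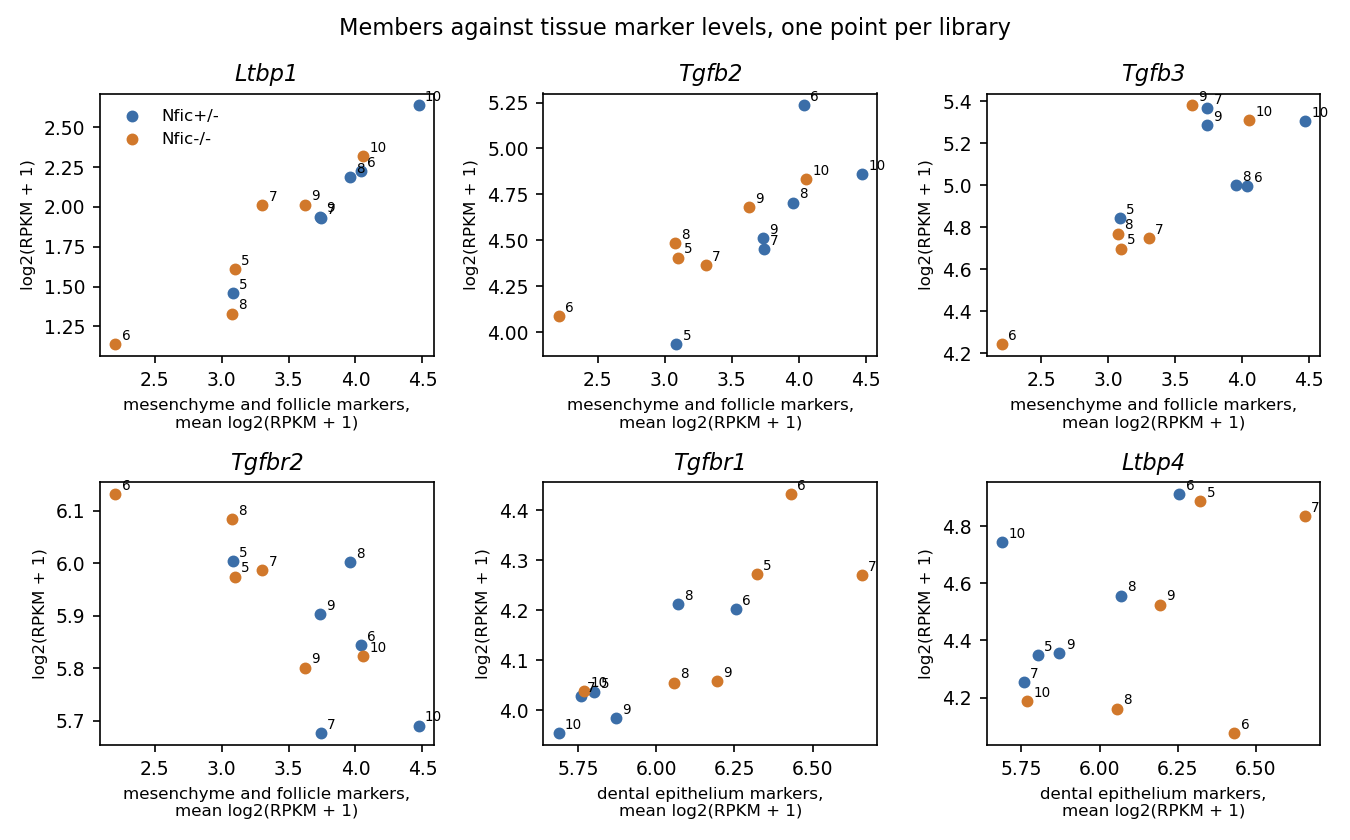
Level of 6 members against the mean log2(RPKM + 1) of the mesenchymal or epithelial markers, with 1 point per library coloured by genotype and labelled with its replicate number. Ltbp1 (r = 0.95), Tgfb2 and Tgfb3 rise and Tgfbr2 (r = -0.79) falls along the mesenchymal axis, Tgfbr1 (r = 0.84) rises along the epithelial axis, and Ltbp4 (r = 0.37) shows no relation that passed.

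Among the 45 pairs of members, 10 correlated past an adjusted permutation p of 0.05 over the 12 libraries, 6 positively and 4 negatively. An r of at least the smallest size called (0.714) was found in 25% of all pairs of genes tested, so the count is near the background and is not a result about the members. The receptors correlated positively among themselves. Tgfbr1 with Tgfbr2 did not pass on the RPKM scale (r = 0.63, adjusted p = 0.0834) but did under the other scalings (r = 0.86 and 0.89), and Tgfbr1 with Tgfbr3 passed at r = 0.75 (adjusted p = 0.0271) but not at rho = 0.61 (adjusted p = 0.168) nor without the 2 libraries farthest in Tgfbr1 (r = 0.57, permutation p = 0.0848). The closest of these pairs was Tgfbr2 with Tgfbr3, at r = 0.84 and rho = 0.82 (permutation p = 0.00066 and 0.00169, adjusted p = 0.0099 and 0.0253), 0.76 without the 2 libraries farthest in Tgfbr2, 0.96 within libraries 5 to 7 and 0.65 within libraries 8 to 10, and 0.91 and 0.94 under upper-quartile scaling and median centring. Tgfb3 opposed Tgfbr2 at r = -0.86 and rho = -0.82 (permutation p = 0.00037 and 0.0016, adjusted p = 0.009 and 0.0253), -0.83 without the 2 libraries farthest in Tgfb3, -0.96 within libraries 5 to 7 and -0.88 within libraries 8 to 10, but with the other scalings r was -0.56 and -0.55 and did not pass (adjusted p = 0.198 and 0.232). Tgfb2 and Ltbp3, at r = 0.86 and rho = 0.77 (permutation p = 0.0004 and 0.00462, adjusted p = 0.009 and 0.0346), had 0.73 without the 2 libraries farthest in Tgfb2, 0.99 within libraries 5 to 7 and 0.44 within libraries 8 to 10, and were at 0.19 and 0.10 under the other scalings. These r pool the genotypes too. Heterozygous then null, r was 0.39 and 0.95 for Tgfbr1 with Tgfbr3 and 0.46 and 0.65 for Tgfbr1 with Tgfbr2. For Tgfbr2 with Tgfbr3 it was 0.88 and 0.74. Tgfb3 with Tgfbr2 had -0.80 and -0.94, and Tgfb2 with Ltbp3 had 0.91 and 0.70.

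**Figure D5:**
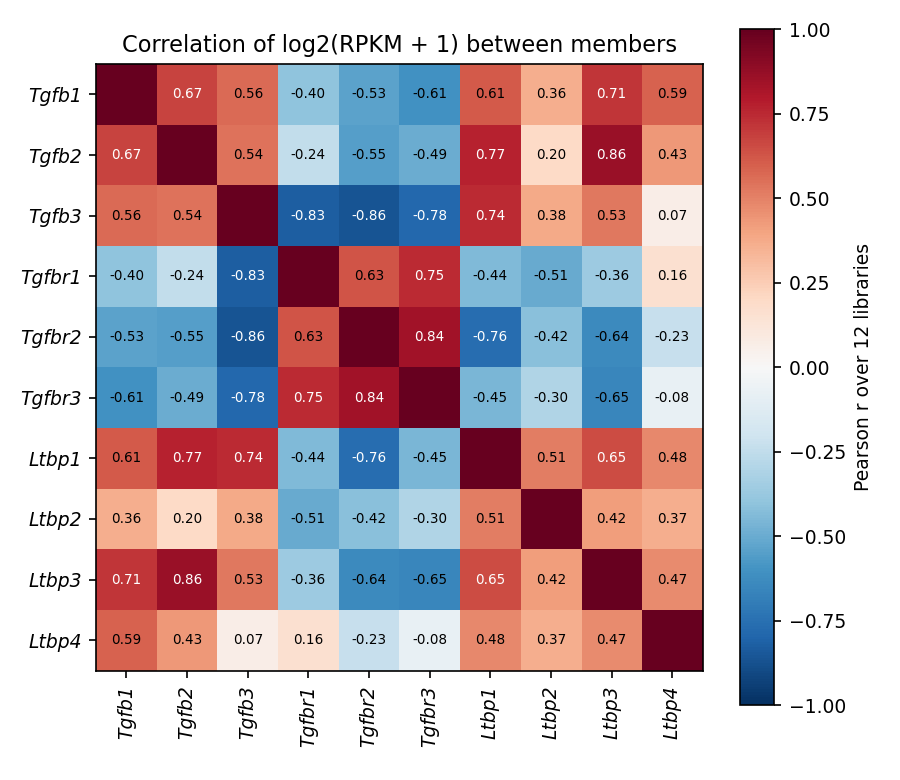
Pearson r between the log2(RPKM + 1) levels of each pair of members over the 12 libraries, from -1 (blue) to 1 (red). On this scale the receptors correlate positively with each other (0.63 to 0.84) and negatively with Tgfb3 (-0.86 to -0.78). No correlation of Tgfb3 with a receptor passed under upper-quartile scaling or median centring (permutation test, adjusted p = 0.0553 to 0.232).

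The genes most like each member, by r of deviations from the genotype means over the 12 libraries, are given as a description. Tgfb3 lay closest to Mrc2 (r = 0.95), a collagen-uptake receptor gene, and Ddr2 (0.94), a collagen receptor gene. Ltbp1 lay closest to Sh2b3 (0.99) and Npr2 (0.98), and Tgfb2 to Papd4 (0.99) and Gnai3 (0.99). Tgfbr2 lay closest to Slc12a4 (0.90) and next to Itgb6 (0.90), which encodes an epithelial integrin subunit that activates latent TGF-beta, and this r was 0.96 after median centring. Tgfbr3 lay closest to Atp6v0a1 (0.89), and Tgfbr1 to Rnf103 (0.94) and Acer3 (0.91). Several of these likenesses weakened once libraries were median centred, from 0.92 to 0.30 for Tgfb1 with Lrrc15, from 0.97 to 0.71 for Ltbp3 with Ankrd6, from 0.99 to 0.66 for Tgfb2 with Gnai3 and from 0.91 to 0.58 for Ltbp4 with Tmem115. Ltbp2 had the least close partner, Sparcl1 (0.85), and Ltbp4 lay closest to Spred1 (0.92).

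Because the mice lack a factor that binds DNA, the 250 bases before the start of the members were searched for the nuclear factor I half-site TTGGC on both strands (GCCAA on the strand shown). RefSeq promoter sequences (GRCm38.p6) were matched for 8 of the 10 members, all but Tgfb3 and Tgfbr3, and 6 of the 8 held a half-site, as did 41.5% of 32851 promoter windows of that length. The full palindrome (TTGGC, 5 further bases, GCCAA) was in none of the 8 and in 0.0365% of all windows. The half-sites of the type I and type II receptor genes, which form the signalling pair, and of Ltbp1, the founding latency protein, are shown as examples 5′ to 3′ on the strand of the gene, with the half-site in capitals.
Tgfbr1, chr4:47353149-47353183, plus strand: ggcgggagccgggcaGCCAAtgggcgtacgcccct
Tgfbr2, chr9:116175499-116175533, minus strand: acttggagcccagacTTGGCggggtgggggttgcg
Tgfbr2, chr9:116175411-116175445, minus strand: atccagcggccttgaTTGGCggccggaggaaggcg
Ltbp1, chr17:75005462-75005496, plus strand: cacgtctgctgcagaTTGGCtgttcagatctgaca
The half-sites begin 58, 155, 67 and 52 bases before the RefSeq start of each gene, in that order. For Tgfbr2 and Ltbp1 this start differs from the GENCODE start given above. All but the Tgfbr2 half-site at 155 overlap a CCAAT box (CCAAT or ATTGG). Binding was not measured, so a match is only a description of the letters.

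Around the members, other pathway genes showed no call either. Of 16 Smads and signal regulators 0 passed in either direction and 8 stood above and 8 below 0 (median 0.01 on the log2(RPKM + 1) scale). The 4 with the smallest p were the endothelial receptor gene Acvrl1 (2.10 ± 0.707 RPKM with 1 intact Nfic copy and 1.27 ± 0.598 RPKM without; SD, n = 6 each), its co-receptor gene Eng (9.03 ± 2.14 and 6.28 ± 2.60 RPKM), the inhibitory Smad6 (32.9 ± 5.80 and 26.9 ± 5.93 RPKM) and the feedback gene Pmepa1 (14.7 ± 1.62 and 16.6 ± 1.76 RPKM). Beside Acvrl1 and Eng, 7 of 7 endothelial markers stood below 0, with summed levels of 25.7 to 48.7 RPKM in heterozygous and 12.1 to 41.9 RPKM in null libraries, and their part was not tested. The signal transducers Smad2 (10.5 ± 0.470 and 10.8 ± 0.649 RPKM) and Smad3 (19.9 ± 2.66 and 20.7 ± 1.59 RPKM) differed by 0.04 and 0.06.

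Among 15 tested genes listed as latency, activation and microfibril partners, elastic fibre genes such as Eln included, 0 passed and 11 stood below 0 (median -0.22). Itgb6 stood higher in the null molars in 6 of 6 pairs, at 6.34 ± 0.973 and 8.31 ± 1.72 RPKM (SD, n = 6 each), as did 2.69% of all genes, with a difference of 0.33 (95% interval 0.07 to 0.60; limma unadjusted p = 0.0172, adjusted p = 0.934). The microfibril genes Fbn2 (18.5 ± 14.4 and 9.09 ± 7.07 RPKM) and Fbn1 (10.8 ± 5.63 and 6.90 ± 3.10 RPKM) and the fibulin gene Efemp2 (27.6 ± 5.75 and 22.3 ± 6.54 RPKM) each stood lower in 5 of 6 pairs. Of the 4 ligand-binding proteoglycan genes 0 passed and 4 stood below 0 (median -0.53). Biglycan (Bgn; 128 ± 22.1 and 85.1 ± 21.6 RPKM) and fibromodulin (Fmod; 39.4 ± 19.98 and 20.1 ± 24.4 RPKM) were each lower in 6 of 6 pairs, as were 2.68% of all genes, with limma unadjusted p of 0.00312 and 0.0234 and an adjusted p of 0.934 for each. Of the 13 tested transcripts that TGF-beta raises in many cell types 0 passed, 6 stood above and 7 below 0 (median -0.02). The collagen genes Col1a2 (713 ± 81.8 and 559 ± 138 RPKM), Col1a1 (2235 ± 471 and 1635 ± 482 RPKM) and Col3a1 (150 ± 59.1 and 89.0 ± 47.3 RPKM) and the matrix gene Tgfbi (49.0 ± 27.2 and 28.8 ± 27.0 RPKM) had the smallest p of this list. The feedback genes Smad7 (10.5 ± 1.58 and 10.9 ± 2.26 RPKM) and Skil (9.52 ± 0.396 and 9.96 ± 0.704 RPKM) differed by 0.04 and 0.06. The feedback gene Pmepa1, also on this list, differed by 0.17 and was higher in 5 of 6 pairs, as were 5 or more pairs in 13.3% of all genes. Inhibitory Smad6, of the list of signal regulators, differed by -0.29. The lower genes of these lists are largely matrix genes, but the lists were chosen to hold many matrix genes, so this is not a result. The mesenchymal markers given above, among which Fbn1 and Col3a1 are counted, stood lower too. So did 5 of 5 odontoblast markers (median -0.53), with summed levels of 564 to 906 RPKM in heterozygous and 386 to 742 RPKM in null libraries. Their part in these values was not tested.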

How the data were processed

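Total RNA was sequenced as 12 libraries. TopHat2 and the mm10 build are named in the submitters' processing notes. For the counting tool and gene annotation, nothing is given in the sources used here. The values were deposited by the authors as RPKM on a log2 scale (-11.1 to 16.7). Base 2 was read from the values, since base 2 placed 0.773 to 0.835 of the reads in genes and base e an impossible 8.23 to 28.4. The design had assumed linear RPKM. Genes with no reads carry a floor of 0.9 reads. Depth was read from that floor and annotated gene length, and 100% of 7081 values under 20 reads came out whole within 0.02 reads. GENCODE M21 (GRCm38) held 24987 of the identifiers and lacked 912.

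Values were turned back to RPKM. The 12094 genes averaging at least 1 RPKM were tested as log2(RPKM + 1) by limma 3.58.1 (R 4.3.3), using a trended variance with no term but genotype, and the fit was checked on simulated data. Correlations used 100000 permutations, adjusted over 20 relations with markers and over 45 pairs, and their backgrounds were counted over all genes tested with a distinct symbol. Other steps used Python 3.11.15 and numpy 2.4.6. The members and gene lists were chosen with earlier results of these data known. The genes named were the members, Nfic, the 4 genes with the smallest p in each pathway list (2 for proteoglycans), and the 3 genes most like each member, of which some are not printed. Smad2, Smad3, Smad7, Skil, Dcn, Aspn and the marker Pax9 were named after their values were seen.

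Pairing was read from the series text (6 pairs of littermates) and the shared numbers. Deviations of same-numbered libraries correlated at r = 0.492, 0.00502, 0.31, 0.667, 0.688 and 0.802 for numbers 5 to 10. Sample sheet positions in the column names repeat, so libraries 5 to 7 and 8 to 10 were treated as separate sets. P-values set differences and correlations against the spread between these libraries. The main limma fit and the permutations of the correlations take no account of the pairs. Summed markers (RPKM, heterozygous then null range) of other tissues were 36001 to 141959 and 52802 to 139922 for ameloblasts, 33.2 to 57.8 and 19.6 to 62.3 for pericytes and smooth muscle, 26.0 to 57.8 and 12.9 to 67.9 for macrophages, 7.75 to 25.0 and 4.98 to 30.7 for platelets, 730 to 1699 and 658 to 2581 for erythroid cells, 4.23 to 9.34 and 3.28 to 7.44 for Schwann cells, and 1.26 to 4.36 and 1.33 to 22.3 for skeletal muscle.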

Additional observations from a re-analysis of the deposited data

How the results depend on the processing

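No alternative called a member or any other gene, among them the replicate block, 2 smaller pseudocounts, 3 scalings, other filters, an untrended and a robust variance, single libraries left out and either set alone. Under the replicate block the smallest adjusted p over all genes was 0.0872 (981 genes at an unadjusted p under 0.05). Of 277 recomputed member differences 5 changed sign. The replicate block, a term for the set of libraries, the other filters, the other variances and the exact permutation repeat the main estimate. Their values are among the 277 but could not change sign. Without both libraries numbered 6 the difference was 0.0618 for Tgfb2, 0.0062 for Ltbp3 and 0.0671 for Ltbp4, in libraries 5 to 7 that of Ltbp4 was 0.0947, and in libraries 8 to 10 that of Tgfbr3 was -0.10. Leaving out 1 library at a time kept every sign, with ranges of -0.16 to -0.08 for Tgfb1, -0.28 to -0.02 for Tgfb2, -0.38 to -0.15 for Tgfb3, 0.07 to 0.15 for Tgfbr1, 0.08 to 0.15 for Tgfbr2, 0.06 to 0.17 for Tgfbr3, -0.45 to -0.20 for Ltbp1, -0.50 to -0.21 for Ltbp2, -0.12 to -0.02 for Ltbp3 and -0.17 to -0.0069 for Ltbp4. The replicate block changed no call. Under a filter at a mean of 5 RPKM, Ltbp1, Ltbp2 and Tgfbr3 had no value.

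For Nfic the difference stood at -0.57 within libraries 5 to 7 and -0.47 within libraries 8 to 10 (exact permutation p = 0.2 in each, where 0.1 is the smallest possible), under the block of pairs -0.52 (exact sign-flip p = 0.0312), and from -0.63 to -0.41 with 1 library left out (exact p from 0.00866 to 0.0628). Of the marker relations 8 passed, against 7 without the libraries numbered 8 and 9, 11 under upper-quartile scaling and 10 under median centring. Of the pairs of members 10 passed, against 6 and 4 under these scalings, which were chosen after seeing the data, as were the pairs themselves. The cause was not tested.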
